A study of Homo sapiens with 10 samples.

Results

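The numbered ZNF genes of chromosome 19 are the subject here, and they were chosen by name and place alone, as protein-coding genes of this chromosome whose symbol starts with ZNF and a number. There were 249 such genes among the 63299 gene identifiers of the count files. Their mRNA was measured by RNA sequencing in U2OS cells, an osteosarcoma cell line, 48 h after transfection of a pool of siRNAs. Control knockdown cells received a control pool and DDX41 knockdown cells a pool against the DEAD-box helicase DDX41, with 5 libraries in each group. All libraries came from this single line, and nothing in the labels says that they came from separate experiments, so the p-values measure the spread between these libraries.

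Most ZNF genes of this chromosome encode proteins that read DNA through a row of C2H2 zinc fingers, in which paired cysteines and histidines hold a zinc ion. Many carry in addition an amino-terminal KRAB domain, which binds the scaffold protein TRIM28 and through it brings the histone methyltransferase SETDB1 and HP1 proteins to the bound DNA. The family grew by repeated duplication of neighbouring genes, so that relatives stand side by side in clusters, and many of its proteins are known to silence transposable elements. mRNAs of KRAB zinc finger genes are known as short-lived.

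The library totals lay between 21807041 and 24896398 counts, and the 249 genes together took 0.258% to 0.280% of them. Levels are given as CPM, counts relative to the library total scaled by edgeR's TMM factors. DDX41 itself had 48.7 ± 1.43 in control knockdown and 12.2 ± 1.00 in DDX41 knockdown cells (SD, n = 5), a 3.98-fold lower level (edgeR quasi-likelihood adjusted p = 4.47e-24), and the groups did not overlap. Of 8 markers of mesenchymal and osteoblast cells, VIM, COL1A1, SPARC and FN1 were at 1390.5 CPM or more in every library. RUNX2 and ALPL lay lower, COL1A2 did not exceed 0.735 CPM and TWIST1 did not exceed 0.0408 CPM. After DDX41 knockdown the mean of RUNX2 went from 32.4 to 24.6 CPM, ALPL from 5.01 to 3.08 and FN1 from 1672 to 1445. That of SPARC went from 2807 to 3181 CPM. The 8 markers summed to 8699 to 9024 CPM in control and 8608 to 8912 CPM in DDX41 knockdown libraries. Of the other cell types, EPCAM lay between 7.39 and 9.42 CPM, and 4 epithelial markers summed to 8.65 to 9.66 CPM in control knockdown and 8.64 to 10.7 CPM in DDX41 knockdown libraries. The endothelial markers PECAM1, CDH5 and VWF summed to 4.66 to 5.59 and 1.52 to 2.90 CPM, so they were lower after DDX41 knockdown without overlap. Markers of blood cells summed to at most 0.682 CPM, with PTPRC at 0.245 to 0.639 CPM and CD3E at no counts. The part of these genes in the results was not tested.

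Of the 249 genes, 14 had no count in any library, 35 had counts but too few to be tested, and 200 were tested. The tested genes had a median level of 9.36 CPM in control knockdown cells, against 20.4 CPM over all tested genes, and a median of 224 counts in a control library. At an adjusted p-value under 0.01 in edgeR's quasi-likelihood test, 47 of the 200 were called higher and 35 lower after DDX41 knockdown, while 118 were not called. Over all 16143 tested genes 62.4% were called, 30.3% higher and 32.1% lower, so both shares among the ZNF genes, 23.5% and 17.5%, lay below the background. The median log2 fold change was 0.05 for the ZNF genes and -0.0014 for all genes. The median absolute log2 fold change was 0.16 for the ZNF genes and 0.28 for all genes.

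The share called in either direction was lower than among all genes in each of 5 ranges of expression. Among genes with 10 to 20 CPM, 57.4% of 54 ZNF genes and 65.4% of 1790 genes were called. At 20 CPM and more, 58.5% of 41 ZNF genes were called, against 74.2% of 8139 genes, and at 2 to 5 CPM the shares were 21.1% of 38 and 52.2% of 1572. Above 10 CPM the difference lay in the lower calls. The shares called higher were 31.5% of ZNF genes and 29.9% of all genes at 10 to 20 CPM, and 39.0% and 39.6% at 20 CPM and more, while those called lower were 25.9% and 35.5%, and 19.5% and 34.7%. The 227 tested ZNF genes of other chromosomes had 75 higher and 57 lower calls (33.0% and 25.1%), and the 752 other tested protein-coding genes of chromosome 19 had 199 and 283 (26.5% and 37.6%). The groups did not overlap in 75 of the 200 tested ZNF genes (37.5%), against 55.9% of all genes. No called ZNF gene rose more than 2-fold, whereas 2, ZNF358 and ZNF28, fell by more than that.

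The genes stood in clusters. A gap of more than 500 kb between neighbouring members was taken as a border, which gave 20 groups, 10 of them with 5 or more members and 235 genes in all. The clusters are numbered here from the short-arm tip, as p1 to p4 on 19p and q1 to q6 on 19q, with the arms divided at the longest stretch without a protein-coding gene, chr19:24129968-29205320 on GRCh38. On 19p, 10 of 52 tested genes were called higher and 10 lower. On 19q, 37 of 148 were called higher and 25 lower. Both arms had medians near 0, 0.07 on 19p and 0.05 on 19q.

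Cluster p1, at 2.8 to 2.9 Mb, held 5 genes, of which 4 were tested and none called in either direction by edgeR or DESeq2. At an unadjusted p under 0.05 it had 1 gene higher. Cluster p2, at 8.5 to 9.8 Mb, had 3 genes higher and 1 lower of 11 tested, and p3, at 11.5 to 12.6 Mb, had 2 higher and 5 lower of 20. Cluster p4, at 19.7 to 24.1 Mb, was the least active: only 14 of its 37 genes reached the test, with 3 called in each direction. Its calls depended on the fit. Only ZNF254 remained higher in DESeq2 and in the GC-corrected fit, and only ZNF738 remained lower in DESeq2, whereas ZNF93, ZNF726 and ZNF738 all remained lower with the GC correction. Among its genes, ZNF91 and ZNF93 encode known repressors of retrotransposons. ZNF91 had 5.27 ± 0.764 CPM in control and 6.47 ± 0.535 CPM in DDX41 knockdown cells (SD, n = 5; edgeR adjusted p = 0.00550), but its call was lost in DESeq2 (adjusted p = 0.0118) and with the GC correction (adjusted p = 0.0273). ZNF93, at the edge of detection, had 0.573 ± 0.0935 and 0.299 ± 0.0470 CPM (edgeR adjusted p = 0.00252), and its call was lost in DESeq2 (adjusted p = 0.0267) and kept with the GC correction (adjusted p = 0.00170).

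On 19q, cluster q1 (34.7 to 35.0 Mb) had no call among 5 tested genes in edgeR or DESeq2, and none at an unadjusted p under 0.05. Cluster q2 (36.2 to 37.8 Mb) had 8 genes higher and 2 lower of 25, and q3 (43.5 to 44.5 Mb) had 4 in each direction of 21. With the GC correction q2 had 6 higher and 4 lower calls, and at an unadjusted p under 0.05 it had 8 and 5. Cluster q5 (55.5 to 56.7 Mb) had 3 in each direction of 16. The remaining clusters, q4 and q6, leaned to opposite sides. In q4 (51.6 to 53.6 Mb) 13 of 35 tested genes were lower (37.1%) and 5 higher (14.3%). In q6 (57.2 to 58.5 Mb) 16 of 40 were higher (40.0%) and none lower. DESeq2 likewise gave 16 higher and none lower in q6, at an unadjusted p under 0.05 there were 21 higher and 3 lower, and the GC-corrected fit called 17 higher and 1 lower. The share of lower calls in q4 was near the background of 32.1%, and that of higher calls in q6 was above its background of 30.3%. The 9 tested genes outside the clusters had 3 higher and 4 lower calls. Clusters were compared by these counts alone, with no test.

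Summed over their members, 5 clusters had groups that did not overlap. The members of q4 together had 564 ± 14.3 CPM in control knockdown and 502 ± 5.89 CPM in DDX41 knockdown cells (SD, n = 5). Those of q6 went from 545 ± 14.3 to 619 ± 9.68 CPM, those of q2 from 394 ± 14.1 to 466 ± 5.43 CPM and those of p2 from 241 ± 3.62 to 274 ± 6.26 CPM. Those of p3 went from 118 ± 3.26 to 125 ± 2.04 CPM, although more of its genes were called lower than higher. In q3, with 298 ± 4.22 and 296 ± 3.68 CPM, in q5, with 157 ± 6.0 and 154 ± 3.41 CPM, and in p1, p4 and q1 the groups overlapped. All ZNF genes of the chromosome together had 2562 to 2699 CPM in control and 2710 to 2799 CPM in DDX41 knockdown libraries, without overlap.

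Genes called in the same direction stood side by side in parts of q4 and q6, and the genes of the following account were picked for this after their values were seen. Among tested neighbours in the same cluster, 2 runs of 6 consecutive genes were called lower, both in q4. All other runs of lower calls had 2 members. The longest run of higher calls had 4 members and opened q6. Over 181 pairs of tested neighbours in the same cluster, the log2 fold changes had a Pearson correlation of 0.30 (Spearman 0.14), and without q4 the value was 0.03 over 147 pairs. These pairs share libraries and in part genes, so the values describe the order and carry no test.

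The upstream regions are shown first, because most genes of the lowered runs resemble each other there more than the raised genes do. RefSeq promoters on GRCh38.p14, 250 bases before to 50 after each start, were at hand for 218 of the 249 genes, among them 10 of the 12 lowered neighbours (not ZNF600 and ZNF28) and the 4 raised ones. The 250 bases before the start of 3 lowered genes follow, 5′ to 3′ on the gene's strand, at chr19:53333499-53333748, chr19:53431734-53431983 and chr19:53467483-53467732, all on the plus strand. Capitals mark the word AGGGCTTTTG. It is 1 of 10 words of 10 bases that 8 of the 10 available promoters of the lowered runs shared, the most for any word, and was taken from these because it was the rarest among all promoters.
ZNF845: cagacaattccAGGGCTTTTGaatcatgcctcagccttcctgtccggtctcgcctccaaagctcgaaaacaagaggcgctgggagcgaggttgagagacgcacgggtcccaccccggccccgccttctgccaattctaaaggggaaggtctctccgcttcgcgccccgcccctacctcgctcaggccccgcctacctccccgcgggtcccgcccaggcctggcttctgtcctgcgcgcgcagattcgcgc
ZNF761: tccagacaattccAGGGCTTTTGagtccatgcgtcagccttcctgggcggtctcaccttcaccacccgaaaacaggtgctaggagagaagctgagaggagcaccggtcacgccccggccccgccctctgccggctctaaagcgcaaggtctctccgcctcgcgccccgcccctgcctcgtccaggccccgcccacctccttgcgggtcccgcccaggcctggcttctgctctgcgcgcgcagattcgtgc
ZNF813: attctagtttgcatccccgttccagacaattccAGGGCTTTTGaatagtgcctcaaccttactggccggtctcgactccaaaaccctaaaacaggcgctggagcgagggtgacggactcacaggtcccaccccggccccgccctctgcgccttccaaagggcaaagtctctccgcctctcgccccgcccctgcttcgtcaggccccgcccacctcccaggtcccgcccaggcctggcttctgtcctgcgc
The same stretch of 3 raised genes of q6 follows, at chr19:57191250-57191499, chr19:57240382-57240631 and chr19:57320222-57320471, again on the plus strand. Here capitals mark GGGACTTCCG, the single 10-base word that all 4 raised promoters held on one strand or the other.
ZNF264: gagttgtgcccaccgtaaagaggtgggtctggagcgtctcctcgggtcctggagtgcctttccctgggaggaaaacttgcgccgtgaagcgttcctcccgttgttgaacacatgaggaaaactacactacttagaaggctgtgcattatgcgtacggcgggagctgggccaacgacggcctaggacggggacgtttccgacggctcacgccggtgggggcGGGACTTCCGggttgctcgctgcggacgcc
ZNF805: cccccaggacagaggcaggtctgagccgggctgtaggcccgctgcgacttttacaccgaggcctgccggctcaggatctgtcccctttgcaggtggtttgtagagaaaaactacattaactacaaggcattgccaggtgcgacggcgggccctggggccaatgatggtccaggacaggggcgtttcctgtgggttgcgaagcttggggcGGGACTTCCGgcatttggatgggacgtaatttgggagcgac
ZNF543: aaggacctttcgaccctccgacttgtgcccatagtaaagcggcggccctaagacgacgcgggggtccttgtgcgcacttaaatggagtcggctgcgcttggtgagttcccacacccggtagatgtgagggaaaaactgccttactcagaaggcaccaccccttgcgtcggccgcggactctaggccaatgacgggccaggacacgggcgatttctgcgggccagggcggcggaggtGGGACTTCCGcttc

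Aligned end to end, the 10 available upstream regions of the lowered runs had a median identity of 79.6% over 45 pairs (52.8% to 86.4%), and the lowest values were those with ZNF331. The 4 upstream regions of the raised run had 55.6% over 6 pairs (51.2% to 63.2%). Pairs taken from a lowered and a raised gene had 52.4% (47.2% to 56.8%). Among the raised genes, the pairs of ZNF264, ZNF805 and ZNF543 had 58% to 63.2%, above all of these. Raised pairs with ZNF460 had 51.2% to 53.2%, within the range of the pairs of a lowered and a raised gene. The upstream regions of q4 genes outside the lowered runs were not aligned. The likeness is therefore not shown to be particular to the lowered genes. The word AGGGCTTTTG, counted on both strands of the 300-base promoters, stood in 8 ZNF genes of this chromosome: ZNF83, ZNF611, ZNF468, ZNF845, ZNF525, ZNF765, ZNF761 and ZNF813. All 8 were called lower, with log2 fold changes between -0.92 and -0.26. Over 14616 autosomal protein-coding genes with a promoter in the table, 26 (0.178%) held it, and of the 11 tested ones outside the ZNF genes of chromosome 19, 5 were lower and 1 higher.

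GGGACTTCCG stood in 16 ZNF genes of the chromosome, of which 15 were tested, with 7 higher, none lower and 8 not called. The 7 higher ones include the 4 raised genes from which the word was taken. Of the 15 tested, all but ZNF599 lie in q6, where 16 of 40 tested genes were higher and none lower. Across all promoters 0.602% held the word. Of 65 tested genes outside the ZNF genes of chromosome 19, 30 were higher and 17 lower (46.2% and 26.2%). Over all tested genes these shares were 30.3% and 32.1%. Both words were chosen from the promoters of the runs, and AGGGCTTTTG also for its rarity, so these counts describe them and test nothing. The longer-known letters CCGGAAGT, the core read by ETS factors, which overlaps GGGACTTCCG in part on the opposite strand, were held by 21.6% of the 218 ZNF genes, against 7.25% of all genes. Of the 43 tested ZNF genes with these letters 16 were higher, 1 lower and 26 not called. Outside the ZNF genes of chromosome 19, 41.5% of 933 tested genes with them were higher and 23.0% lower. Over all tested genes, which include genes that are not protein-coding, these shares were 30.3% and 32.1%. The GC box GGGCGG was held by 71.6% of the ZNF genes and 65.5% of all genes, and by 87.1% of the 31 ZNF genes with a promoter that were called lower and 62.2% of the 45 called higher. The CCAAT box CCAAT was held by 57.3% of the ZNF genes and 42.2% of all genes. TATAAA was rarer among the ZNF genes, with 3.21% against 12.5%, and so was the E-box CACGTG, with 5.05% against 10.8%. The cAMP response element TGACGTCA was held by 4.13% and 3.12%. Of the 9 tested ZNF genes with it 5 were higher, 1 lower and 3 not called. Outside the ZNF genes of chromosome 19, 41.5% of 381 tested genes with this element were higher and 27.3% lower. Among such genes with the GC box, the CCAAT box, TATAAA and the E-box, 33.3%, 32.6%, 36.9% and 36.7% were higher. The shares called lower were 35.4%, 36.0%, 32.4% and 31.6% in the same order. Each of these stretches of letters was searched on both strands, and a match is a match of letters only.

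The lowered run nearer the centromere spanned 52.56 to 52.86 Mb and held ZNF701, ZNF83, ZNF611, ZNF600, ZNF28 and ZNF468. The one nearer the telomere spanned 53.33 to 53.58 Mb and held ZNF845, ZNF525, ZNF765, ZNF761, ZNF813 and ZNF331. ZNF28 (chr19:52797408-52857600, minus strand), a KRAB zinc finger gene, had 26.5, 25.7, 29.1, 31 and 26.9 CPM in the control knockdown libraries and 9.61, 9.90, 9.75, 12.2 and 10.2 CPM in the DDX41 knockdown libraries. Every DDX41 knockdown library lay below 50% of every control library. The log2 fold change was -1.43 ± 0.06 (SE; edgeR adjusted p = 1.86e-17; 5 libraries per group, exact permutation p = 0.00794, the smallest that 5 against 5 allows, two-sided).

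Its neighbour ZNF468 (chr19:52838010-52857649, minus strand), whose start lies within 50 bases of that of ZNF28, had 29.6, 28.7, 29.7, 28.4 and 27.1 CPM in control knockdown and 14.4, 17.4, 15.8, 17.2 and 15.8 CPM in DDX41 knockdown cells. All libraries of the DDX41 group were lower than all of the control group, and the log2 fold change was -0.83 ± 0.05 (adjusted p = 1.12e-14). The genes share some exon bases on the same strand, so another counting could divide their reads differently. ZNF600 fell by 0.74 and ZNF611 by 0.61 on the log2 scale, from 6.41 to 3.85 and from 17.8 to 11.7 CPM, without overlap of the groups. ZNF83 and ZNF701, at the edge of the run, fell by 0.26 and 0.30, and the groups of ZNF701 overlapped. ZNF701 shares exon bases with ZNF808, which had more counts and was not called (log2 fold change 0.15). ZNF83 shares some with an unnamed gene of the same strand that had 43% as many counts.

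In the run nearer the telomere ZNF525 (chr19:53365693-53392217, plus strand) changed most. It had 14.3, 15.1, 14.8, 14.1 and 15.2 CPM in control knockdown and 7.18, 7.95, 7.09, 8.43 and 8.13 CPM in DDX41 knockdown libraries. The highest of the latter was far below the lowest of the former, and the log2 fold change was -0.92 ± 0.06 (adjusted p = 1.18e-13). ZNF765 (chr19:53389793-53430413, plus strand) had 18.5, 18.9, 19, 19.9 and 21.1 and 10.6, 10.7, 10.4, 11.1 and 11.2 CPM. Its groups were likewise apart, at a log2 fold change of -0.85 ± 0.06 (adjusted p = 3.28e-14). ZNF761 (chr19:53431984-53461862, plus strand) had 21.8, 19.4, 22.7, 23.5 and 20.7 and 13.2, 12.9, 13.1, 13.6 and 13.5 CPM. That is a log2 fold change of -0.70 ± 0.06 (adjusted p = 3.00e-12), again with no overlap. ZNF525 and ZNF765 overlap in their spans but share no exon bases, while ZNF761 shares a few with TPM3P9, which had 35.7% as many counts. In all, 5 of the 12 lowered neighbours share exon bases with another counted gene. ZNF813 fell by 0.52 and ZNF845 by 0.48. ZNF331, an imprinted gene at the end of the run, fell least, from 23.9 ± 1.24 to 21.3 ± 0.909 CPM (adjusted p = 0.00381), and DESeq2 did not call it.

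Between the lowered runs lay 476 kb with 7 tested members, of which 1, ZNF347, was called lower (log2 fold change -0.19 ± 0.05). ZNF320, next to ZNF468, had 21.9 ± 0.980 CPM in control and 22.4 ± 1.78 CPM in DDX41 knockdown cells, with overlapping groups (log2 fold change 0.03 ± 0.05). ZNF160 had 33.3 ± 1.44 and 35.3 ± 1.30 CPM. ZNF888, ZNF816, ZNF415 and ZNF665 were not called either, with log2 fold changes from -0.16 to 0.15. The centromere side of q4 held the higher calls, ZNF649, ZNF613, ZNF432, ZNF766 and ZNF528. Among them ZNF613 rose most, from 10.5 ± 0.941 to 15.3 ± 1.11 CPM (log2 fold change 0.54 ± 0.07). Outside the lowered runs, q4 had 5 higher and 1 lower call among 23 tested genes and a median of 0.05.

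Reads from such close relatives can be hard to assign. Of the 12 lowered neighbours, 10 have at least 1 coding window of the read length, 84 bases, in common with another ZNF gene of the chromosome (not ZNF83 and ZNF331). The following 84 bases of spliced coding sequence, in the part that encodes the start of the KRAB domain, are the same in ZNF525, ZNF761, ZNF765, ZNF813 and ZNF888.
shared window: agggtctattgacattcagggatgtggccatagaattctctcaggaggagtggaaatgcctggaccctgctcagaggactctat
Of all 84-base windows of the transcript, 3.83% were found elsewhere for ZNF765, 3.86% for ZNF813, 5.03% for ZNF600, 3.59% for ZNF611 and none for ZNF28 and ZNF468, where windows shared with an overlapping gene are not counted. ZNF888, with 5.84%, was at 0.515 CPM after DDX41 knockdown. Of the 200 tested genes, 137 had no such window and 35 had them in more than 1% of their length. How the authors' counting treated reads that map to several places is not given in the sources used here.

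The raised run of q6 spanned 57.19 to 57.33 Mb. ZNF460 (chr19:57280051-57294069, plus strand) had 7.80, 7.47, 6.69, 7.70 and 8.04 CPM in control knockdown and 13.9, 12.8, 13.8, 13.4 and 12.6 CPM in DDX41 knockdown libraries. Each DDX41 knockdown library was above each control library, and the log2 fold change was 0.82 ± 0.07 (adjusted p = 3.32e-12), the highest among the called ZNF genes of the chromosome. ZNF805 had 5.47, 5.80, 5.55, 6.25 and 5.62 and 10.6, 10.6, 10.4, 9.07 and 8.73 CPM (log2 fold change 0.78 ± 0.08, adjusted p = 2.95e-10). ZNF264, the most abundant of the run, had 29.98, 32.6, 35.2, 31.5 and 32 and 52.5, 51.5, 50.4, 48.1 and 46.8 CPM (log2 fold change 0.63 ± 0.04, adjusted p = 1.21e-13). Neither gene had overlapping groups. A gene on the strand of ZNF805 that shares exon bases with it had 31.4% as many counts. ZNF543 rose from 7.16 ± 0.656 to 10.5 ± 1.12 CPM. Further along q6, ZNF587B, ZNF256, ZNF17, ZNF749, ZNF416, ZNF419, ZNF329, ZNF586, ZNF530, ZNF274, ZNF544 and ZNF551 were called higher with smaller changes, from 0.19 for ZNF551 to 0.46 for ZNF587B. ZNF274 encodes a KRAB protein known to bind the finger-coding ends of other ZNF genes. It had 29 ± 1.48 CPM in control and 34.2 ± 1.53 CPM in DDX41 knockdown cells.

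Outside these runs, other genes of most clusters changed. ZNF358 (chr19:7515292-7521025, plus strand), which lies apart from the clusters on 19p and matched no KRAB pattern, fell most of all ZNF genes of the chromosome. It had 15.6, 16.2, 13.2, 12.6 and 15.5 CPM in control knockdown and 2.16, 2.82, 1.98, 3.28 and 2.98 CPM in DDX41 knockdown libraries. The groups were far apart, at a 5.52-fold lower level (log2 fold change -2.46 ± 0.11, adjusted p = 1.80e-16). A gene on the other strand overlaps 14.1% of its exon bases and had 2 counts in all libraries together. In p2, ZNF699 had 11.2, 11.7, 10.8, 11.8 and 11.5 and 19.6, 19.7, 18, 18.6 and 19 CPM (log2 fold change 0.73 ± 0.05, adjusted p = 4.80e-13). ZNF121 of the same cluster had 39, 40.1, 41.2, 38.9 and 41.9 and 66.5, 69.1, 66.3, 63.6 and 58.7 CPM (log2 fold change 0.69 ± 0.04, adjusted p = 3.35e-15). Both rose without overlap, and so did ZNF561, the neighbour of ZNF121, by 0.14 on the log2 scale, while ZNF266, which is near them, fell by 0.31 on the log2 scale.

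In p3, ZNF791 rose by 0.53 and ZNF844 fell by 0.63 on the log2 scale. In p4, ZNF254 had 3.88, 3.80, 3.53, 3.98 and 3.00 and 6.49, 6.77, 5.32, 6.52 and 4.73 CPM (log2 fold change 0.71 ± 0.11), and ZNF738 fell by 0.65. An overlapping gene on the same strand had 89.6% as many counts as ZNF254. ZNF850 of q2 had 17, 15.2, 17.3, 16.3 and 16.6 and 26.9, 26.9, 31.1, 27 and 25.3 CPM, and every DDX41 knockdown library was above every control library (log2 fold change 0.74 ± 0.05, adjusted p = 6.00e-13). Its neighbour ZNF790 rose by 0.35. ZNF569 of the same cluster fell by 0.24. In q3, ZNF283 rose by 0.43 and ZNF227 fell by 0.45. ZNF227 shares exon bases with ZNF235 on the other strand, which rose by 0.33, and the strand setting of the counting is not given in the sources used here. In q5, ZNF471 rose by 0.35 and ZNF71 fell by 0.46. Among genes outside the clusters, ZNF473, which encodes a protein of histone pre-mRNA processing, fell from 36.9 ± 1.48 to 33.4 ± 1.82 CPM (log2 fold change -0.14 ± 0.04), with overlapping groups.

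Per length of exon, ZNF146 stood above all other members in control knockdown cells, with 35.6 CPM per kb, followed by ZNF428 with 11.5 and ZNF404 with 11.2 CPM per kb. ZNF146 encodes a protein made of zinc fingers alone. Its level was 149, 138, 149, 159 and 143 CPM in the control knockdown libraries and 194, 189, 191, 191 and 191 CPM in the DDX41 knockdown libraries, so each of the latter was higher (log2 fold change 0.38 ± 0.03, adjusted p = 6.35e-12). ZNF428 had 17.8 ± 1.07 and 15.3 ± 0.864 CPM (log2 fold change -0.22 ± 0.06, adjusted p = 0.00108), and with the GC correction this was no longer called. ZNF404 had 27.6 ± 1.48 and 28 ± 0.816 CPM and was not called. Levels per kb of ZNF428 and ZNF404 in control cells lay too close to be ordered by their spread.

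Relatives by sequence were compared next. For each tested gene the relative that shared most 20-base words of coding sequence was taken. In 61 genes the relative shared at least 10% of the words, and in all 61 it stood in the same cluster. Of 16 such genes called lower, 11 had a relative called lower, 1 a relative called higher and 4 a relative that was not called. Of 9 called higher, 5 had a relative called higher, none a relative called lower and 4 one that was not called. Over the 61 pairs, the log2 fold changes had a Pearson correlation of 0.63 and a Spearman correlation of 0.52. This rested on the runs described above, which held 9 of the 11 pairs of lower calls and 3 of the 5 pairs of higher calls. Without the genes of the runs, 46 pairs had a Pearson correlation of 0.12 and a Spearman correlation of 0.16. Several genes appear in more than one pair, and the pairs share libraries and reads, so no test is given. ZNF611 and ZNF600 are such relatives, as are ZNF28 and ZNF468, ZNF765 and ZNF761, and ZNF264 and ZNF805.

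Protein features were read from the translated sequences. A KRAB pattern was found in 198 of the 249 genes, a count that misses diverged domains. Of 156 tested genes with it, 36 were higher and 25 lower (23.1% and 16%), and of 44 without it, 11 and 10 (25% and 22.7%). The medians were 0.05 in both groups. The proteins had a median of 12 fingers and at most 36. Genes with up to 8 fingers had 5 higher and 9 lower calls of 39, and those with 9 to 12 had 15 and 5 of 63. Those with 13 to 16 had 19 and 13 of 62, and those with 17 or more had 8 in each direction of 36. In these 4 groups 12.8% to 30.6% were higher and 7.94% to 23.1% lower, so no share of higher calls was far above the 30.3% of all genes and no share of lower calls reached 32.1%. Across the 200 genes the number of fingers and the log2 fold change had a Spearman correlation of 0.10. The control level gave -0.0046 and the GC content of the transcript -0.05. All of these points come from the same 10 libraries.

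Features tied to mRNA decay were also read. The pentamer ATTTA, the core of AU-rich elements that shorten the life of mRNAs, occurred 1.97 times per kb of 3′ UTR in the tested ZNF genes and 1.74 times per kb in all tested protein-coding genes (medians). It was 2.21 per kb in the genes called higher, 1.47 in those called lower and 2.01 in those not called. The 3′ UTRs had median lengths of 1870 bases, 1513 bases and 1605 bases in the same order. Across 199 genes the pentamer's density and the log2 fold change had a Spearman correlation of 0.11. A list of short-lived mRNAs outside the family had 14 genes higher and 1 lower of 18 tested (77.8% and 5.56%, against 30.3% and 32.1% of all genes), with a median log2 fold change of 0.36. IER2, an immediate-early gene, rose from 49.2 ± 3.62 to 83.5 ± 2.87 CPM, and the transcription factor gene KLF6 from 85.6 ± 2.13 to 133 ± 3.53 CPM (SD, n = 5). The median of the ZNF genes was 0.05. The list was chosen with earlier results of these data known, and what raised its genes was not tested.

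The partners of KRAB proteins were read as well. TRIM28, the scaffold itself, rose slightly, from 328 ± 15.9 to 353 ± 4.81 CPM (log2 fold change 0.11 ± 0.03, adjusted p = 0.00189). Without control replicate 4 it was no longer called (log2 fold change 0.09, edgeR adjusted p = 0.0125). SETDB1 was not called, at 54.5 ± 2.29 and 54.6 ± 1.81 CPM. Of the 22 genes of the co-repressor list, all tested, 4 were higher and 9 lower, with a median log2 fold change of -0.03. The called share, 59.1%, was close to the 62.4% of all tested genes. Besides TRIM28, the genes HDAC1, TASOR and CHD3 were called higher, by 0.14, 0.10 and 0.09 on the log2 scale. The HP1 genes CBX1, CBX3 and CBX5 all fell, by 0.49, 0.17 and 0.22 on the log2 scale. CBX1 had 311 ± 6.35 CPM in control and 221 ± 5.88 CPM in DDX41 knockdown cells. RBBP4, a histone chaperone of the NuRD complex, fell from 296 ± 6.01 to 212 ± 3.79 CPM, and ATF7IP, a partner of SETDB1, from 79.1 ± 4.69 to 52.1 ± 1.48 CPM.

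Zinc finger genes of chromosome 19 with other names had 5 higher and 1 lower call among 12 tested of 19 (41.7% and 8.33%, against 30.3% and 32.1% of all genes). ZFP82 rose from 7.78 ± 0.652 to 12.7 ± 1.03 CPM (log2 fold change 0.71 ± 0.07) and ZBTB7A, a BTB domain repressor, from 22.3 ± 0.908 to 28.7 ± 1.15 CPM (log2 fold change 0.37 ± 0.05). ZFP36, which the name pattern also takes in, encodes an RNA-binding protein of another finger type and is also on the list of short-lived mRNAs. It rose from 4.28 ± 0.797 to 7.11 ± 0.319 CPM. ZFP30 was the gene called lower (log2 fold change -0.35 ± 0.07).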

How the data were processed

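Poly(A) RNA was made into stranded TruSeq libraries by the authors and read once over 84 bases. They used bcl2fastq 2.19, aligned with STAR 2.7 against hg38 (annotation: Gencode release 25), and assigned reads to genes by featureCounts 1.6, with versions per the submitters' processing notes. The deposited values are raw whole-number counts per gene, 1 library per file. Total counts per library lay between 21807041 and 24896398, and low genes are limited by this depth. Sample groups were taken from the labels. In 20 pairs of libraries of the same group, a chi-square of the counts per degree of freedom lay between 1.84 and 6.18, so none was a copy of another.

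GENCODE release 44, also on GRCh38, was joined by Ensembl identifier (98.7% of the tested genes matched) and gave symbols, positions, exon lengths and translated coding sequences. Clusters were split at gaps over 500 kb, and those with fewer than 5 members were counted as outside. The test was edgeR 4.0.16 under R 4.3.3 (expression filter filterByExpr, TMM scaling, robust quasi-likelihood fit, Benjamini-Hochberg adjustment over all 16143 tested genes, adjusted p under 0.01). The standard error is the log2 fold change divided by the square root of F. On simulated counts, 96.5% of 200 genes changed 1.5-fold were recovered, with 1 false call. Other values were computed in Python 3.11.15, and permutation tests of 5 against 5 libraries were exact over 252 splits.

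A KRAB domain was taken from the pattern LY, any 2 residues, V, M or T, any residue and E before the first finger. The RefSeq promoters were matched by symbol. Named genes are DDX41, TRIM28, and, among tested members with at least 2 CPM in a group, the 5 highest and 5 lowest fold changes called without overlap, the member with the smallest adjusted p in each direction in each cluster, the 3 highest levels per kb, and 2 genes from each list (co-repressor genes, other zinc finger names, short-lived mRNAs). The genes of the runs, those between, and the further genes named in the text (among them ZNF91, ZNF93, ZNF274, ZNF473, ZNF561, ZNF790, SETDB1, ATF7IP, CBX3, CBX5, ZFP36 and ZFP30) were chosen outside this rule, after their values were seen. The members and lists were chosen with earlier results of these data known. Alternatives (DESeq2 1.42.0, other scalings, filters and thresholds, a replicate block, a GC correction, other member sets, libraries left out) are given in the closing section.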

Additional observations from a re-analysis of the deposited data

Results flagged for a closer look

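Of 100 sets of 5 values examined for a library far from the others, 5 held one by Dixon's criterion, about as many as the 1 in 20 that chance gives. ZNF28 had 12.2 CPM in DDX41 knockdown replicate 4, against 9.61 to 10.2 CPM in the other libraries of the group. ZNF404 had 24.9 CPM in control knockdown replicate 5, against 28.1 to 28.4 CPM. ZNF611 had 19.7 CPM in control knockdown replicate 3, against 17.2 to 17.5 CPM. ZNF845 had 13.6 CPM in DDX41 knockdown replicate 5, against 15.8 to 16.5 CPM. ZNF347 had 35.5 CPM in DDX41 knockdown replicate 2, against 29.7 to 30.4 CPM. ZNF28, ZNF611, ZNF845 and ZNF347 stayed called lower without that library.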

How the results depend on the processing

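The counts of 47 higher and 35 lower ZNF genes stayed within 1.5 times under the other scalings, filters, DESeq2 (45 and 29), the GC correction (43 and 43) and an adjusted p under 0.05 (57 and 43). Leaving out single libraries gave 41 to 46 higher and 32 to 37 lower calls, and 38 and 30 of the reported genes were called in all 10 such fits. No gene was called in opposite directions in any refit. The 116 tested genes that share no exon bases with another gene gave 31 higher and 18 lower calls. These are 26.7% and 15.5%, against 23.5% and 17.5% of all 200 tested ZNF genes. The 84 that share some gave 16 higher and 17 lower calls, so lower calls were relatively more frequent there. Whether shared exon bases shaped these calls was not tested. A log2 fold change over 1 left 0 and 2. Without the 12 genes of the lowered runs, chosen after seeing the data, 23 lower calls were left and the median was 0.08. That median ranged from 0.04 to 0.08 over all alternatives. The GC correction moved the cluster medians of p2 to 0.084, q1 to 0.000935, q2 to 0.066, q3 to -0.055 and q4 to -0.13, from 0.10, 0.06, 0.11, 0.03 and -0.08; the cause was not tested. Splits at 250 kb and 1000 kb gave 25 and 16 clusters. Of the 12 lowered neighbours, 11 were called in all 18 refits, as were the 4 raised ones.

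ZNF331 lost its call with DESeq2 (-0.15), without control replicate 3 (-0.13) and without DDX41 knockdown replicate 2 (-0.14). ZNF428 lost it with the GC correction (-0.13), and TRIM28 without control replicate 4 (0.09). Among genes that were not called, ZNF404 turned to -0.055 with the GC correction and to -0.056 with the replicate block added, and ranged from -0.0093 (without control replicate 5) to 0.040 with single libraries left out. ZNF320 turned to -0.0067 and -0.0079 in the same refits and ranged from -0.0065 (without DDX41 knockdown replicate 2) to 0.071, and ZNF665 ranged from -0.093 to 0.022 (without DDX41 knockdown replicate 4). Over all refits ZNF888 ranged from -0.27 to -0.016 and ZNF415 from -0.21 to -0.042. The same-numbered libraries did not deviate together (correlations from -0.05 to 0.04, and 1 of 5 control libraries correlated best with its own number), and with the replicate block 45 genes were higher and 35 lower, and with the GC correction as well 39 and 41.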
